A study of Mus musculus with 37 samples.

Results

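Adipose macrophages with higher and with low or no measured Trem2 transcript were compared among single cells of obese mouse fat. Of 37 sequenced cells, 21 formed the Trem2-positive side and 14 the Trem2-negative side. The sides were selected on the measured Trem2 value itself: a cell was positive at 5 FPKM or more and negative below it, FPKM being a fragment count scaled to transcript length and to the depth of the library. Cells 7 and 27, which hold fibroblast genes, were left out, so 35 cells entered every comparison.

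All cells came from epididymal white fat of male C57BL/6J mice kept on a high-fat diet, and carried the labelled cell type adipose tissue macrophage. The tissue was digested with collagenase, the floating adipocytes were removed, and the remaining cells were sorted and captured on the Fluidigm C1, a microfluidic device that isolates and lyses 1 cell per chamber. No lean animals and no other genotype were compared here, so both sides share the strain, sex, diet and depot. Neither the age of the animals nor the sort gate is stated in the labels. The labels tie no cell to an animal, so the 35 cells count as 1 sample without replicates. Every value below describes these cells, no test was made from cells, and each SD gives only the spread between cells.

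TREM2 is a cell-surface receptor of macrophages and microglia that binds lipids, lipoproteins and debris of dying cells. It has almost no cytoplasmic signalling part of its own and passes its signal through the adaptor TYROBP (DAP12) to the kinase SYK, while the lipid phosphatase INPP5D (SHIP1) dampens the pathway and the proteases ADAM10 and ADAM17 cut the receptor from the surface. In obese fat, Trem2 marks the lipid-associated macrophages, cells that gather around dying adipocytes, take up lipid and carry a program of lipid handling and lysosomal genes. Lpl, Gpnmb and Cd9 are further markers of that state.

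The sequences around the transcription starts of 5 genes picked for display are given first. These regions hold motifs of factors that act in macrophages, and are examples rather than a sample of the called genes. Each is the RefSeq window of 300 bases, from 250 bases before to 50 after the annotated start, in build GRCm38.p6, written 5′ to 3′ on the gene's strand. Trem2 (chr17:48346151-48346450, plus strand) and the lysosomal and melanosomal glycoprotein gene Gpnmb (chr6:49036268-49036567, plus strand) each hold an AP-1 motif, in capitals, at bases 242 to 248 and 259 to 265 of the window. Inpp5d (chr1:87620062-87620361, plus strand) holds an ETS motif of the type bound by the myeloid factor PU.1, in capitals at bases 231 to 238.
Trem2: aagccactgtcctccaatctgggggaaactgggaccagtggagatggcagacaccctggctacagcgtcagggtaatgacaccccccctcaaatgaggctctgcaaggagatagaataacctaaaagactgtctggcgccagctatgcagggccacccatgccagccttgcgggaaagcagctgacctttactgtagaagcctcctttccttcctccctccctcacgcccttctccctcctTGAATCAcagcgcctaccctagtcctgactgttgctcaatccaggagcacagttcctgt
Gpnmb: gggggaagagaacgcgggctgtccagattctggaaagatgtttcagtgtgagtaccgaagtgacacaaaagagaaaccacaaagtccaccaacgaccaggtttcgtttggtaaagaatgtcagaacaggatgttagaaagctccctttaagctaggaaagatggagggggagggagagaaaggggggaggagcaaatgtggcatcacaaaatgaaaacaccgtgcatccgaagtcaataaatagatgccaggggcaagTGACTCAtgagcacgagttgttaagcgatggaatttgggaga
Inpp5d: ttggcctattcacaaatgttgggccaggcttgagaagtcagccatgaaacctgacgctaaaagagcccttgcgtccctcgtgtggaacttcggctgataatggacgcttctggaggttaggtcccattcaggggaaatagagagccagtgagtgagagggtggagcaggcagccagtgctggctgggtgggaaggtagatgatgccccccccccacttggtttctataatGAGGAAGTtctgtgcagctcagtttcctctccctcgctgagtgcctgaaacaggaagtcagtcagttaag
The other 2 windows belong to genes that were lower in Trem2-positive cells. Nfkbia (chr12:55492598-55492897, minus strand), the gene of the NF-kB inhibitor IκBα, holds an NF-kB motif, in capitals at bases 222 to 231. Ppp1r15a (chr7:45526219-45526518, minus strand), the gene of the stress-response protein GADD34, holds a cAMP response element, in capitals at bases 239 to 246.
Nfkbia: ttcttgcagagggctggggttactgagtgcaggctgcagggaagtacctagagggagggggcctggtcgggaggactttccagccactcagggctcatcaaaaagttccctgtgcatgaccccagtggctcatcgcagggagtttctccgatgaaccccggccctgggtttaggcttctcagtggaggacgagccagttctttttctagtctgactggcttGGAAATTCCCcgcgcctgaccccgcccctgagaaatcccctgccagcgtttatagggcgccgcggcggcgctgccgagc
Ppp1r15a: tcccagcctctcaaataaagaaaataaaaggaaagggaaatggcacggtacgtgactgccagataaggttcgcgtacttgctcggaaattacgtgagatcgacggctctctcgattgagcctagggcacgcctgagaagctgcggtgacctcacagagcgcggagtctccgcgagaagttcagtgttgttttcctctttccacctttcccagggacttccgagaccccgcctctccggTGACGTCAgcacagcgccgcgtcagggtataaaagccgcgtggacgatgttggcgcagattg

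Motifs were searched on both strands as exact letters, and NF-kB by its consensus. The letters were TGANTCA for AP-1, TGACGTCA for the cAMP response element, GAGGAAGT for ETS and CACGTG for the E-box. Of the 99 genes called higher below, 83 matched an entry and gave 103 windows. An E-box lay in 17.5% of those windows, in 11% of the windows of all measured genes and in 7.15% of all 32851 windows. AP-1 lay in 8.74% of the windows of higher genes, 4.96% of those of measured genes and 7.81% of all windows. The cAMP response element lay in 3.88%, 3.24% and 1.79% in the same order, ETS in 3.88%, 3.89% and 3.20%, and NF-kB in 1.94%, 5.50% and 4.51%. Of the 21 lower genes 16 matched and gave only 24 windows. NF-kB lay in 4 of these, the cAMP response element and ETS in 2 each, and the E-box and AP-1 in 1 each. With so few windows these counts are not read further. A match is a stretch of letters and says nothing of binding.

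Trem2 divided the cells widely. On the positive side its level ran from 11.5 FPKM through a median of 345 to 5403 FPKM in cell 2, and 14 cells were at 100 FPKM or more. On the negative side the median was 0.299 and the highest 2.03 FPKM, with 5 cells listed at 0 and 8 more below 1 FPKM. Just inside the threshold lay cell 12 at 11.5 and cell 33 at 16.1 FPKM, and just outside it cell 19 at 2.03 and cell 29 at 0.60 FPKM. The sides cannot overlap in Trem2, since it chose them, and its difference is no result. An exact 0 in this table can be a failed estimate.

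Both sides read as macrophages. Of 11 macrophage markers (Lyz2, C1qa, C1qb, C1qc, Cd14, Fcer1g, Tyrobp, Emr1, Csf1r, Ptprc and Cd68), positive cells held 10 to 11 and negative cells 8 to 11 at 1 FPKM or more, with a median of 11 on both sides. Of 71 marker genes in the table for 10 other cell types, 44 were listed at 0 in all 35 cells and 13 reached 1 FPKM in some cell, and no cell held 3 genes of 1 list. Those seen in at least 5 cells were Batf3, a dendritic cell factor, with a difference of -0.54, and Il7r, of lymphocytes, with 0.52. Over all 71 marker genes the summed level of a cell had a median of 9.68 FPKM on the positive side (0.201 to 489). On the negative side the median was 41.7 FPKM (0.0923 to 961).

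The sides differed in how many genes were seen. Positive cells held 1239 to 2769 genes at 1 FPKM or more, with a median of 2094, and negative cells 1224 to 2060, with a median of 1695.5. Fragment counts are lacking in the deposited table. An estimate of what 1 fragment was worth had similar medians, 1 on the positive and 0.940 on the negative side, relative to all cells. It was over 4 times the median in 2 positive cells (2 and 24) and 3 negative cells (15, 17 and 26), which stand apart. The part of gene detection in the differences below was examined only through the alternatives given beside them, and was otherwise not tested.

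Across 4369 genes measured at 1 FPKM or more in at least 5 cells, 99 including Trem2 were higher and 21 lower in Trem2-positive cells by 2 or more on the log2 scale, which is 4-fold. That was 2.27% of measured genes called higher and 0.481% called lower, and 82.5% of calls were higher. A gene could pass the filter through 1 side alone, and the positive side holds more cells. Over all 11160 genes above 0 in any of the cells the counts were also 99 and 21. Differences are between mean log2(FPKM + 1) values, a scale that understates low genes. The median gene differed by 0.24, and 62.3% of genes had a difference above 0. After scaling by the median ratio the median gene differed by 0.13 and the split was 64 higher to 28 lower, 69.6% higher. After removal of a linear term in the number of genes detected it was 69 to 47, 59.5% higher, with a median gene at 0.01.

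**Figure D1:**
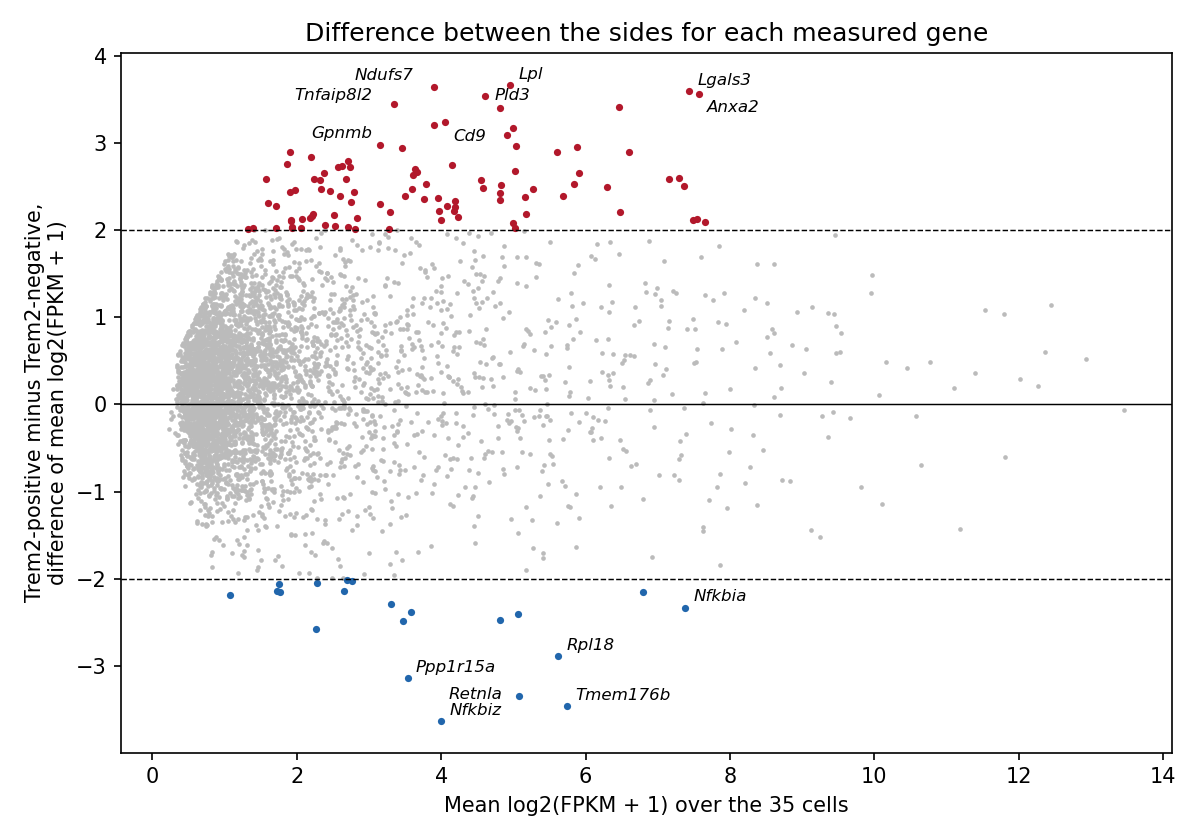
Each point is 1 of the 4369 measured genes without Trem2. The horizontal axis is the mean log2(FPKM + 1) over the 35 cells and the vertical axis the difference of means, Trem2-positive minus Trem2-negative; dashed lines mark 2 and -2, with red points at or above and blue points at or below them. The red points outnumber the blue ones, and Lpl at 3.67 and Nfkbiz at -3.63 lie at the ends.

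Among the TREM2 signalling genes, the phosphatase Inpp5d and the protease Adam10 were higher in Trem2-positive cells. Of 12 measured genes of the pathway besides Trem2, 2 were higher, none was lower and 10 lay within the 4-fold limit, beside 2.27% of all measured genes called higher, and the median was 0.42 beside 0.24 for all genes. Tyrobp, the adaptor that Trem2 needs at the surface, was abundant on both sides. It ran from 278 through 1637 to 4813 FPKM in positive cells and from 407 through 2163 to 6987 FPKM in negative cells, a difference of -0.13, and it was detected in every cell. The sides overlapped in the adaptor's transcript, and the sign of its difference changed in 4 of 15 alternatives. Alternatives that changed only the gene filter cannot move the value of a single gene. Syk, the kinase downstream, had medians of 3.02 and 10.9 FPKM and a difference of -0.50.

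Inpp5d, the inhibitory phosphatase, had a median of 7.47 FPKM (0 to 186) in positive cells and 0.0234 FPKM (0 to 1.34) in negative cells. It was detected in 14 of 21 positive cells and 1 of 14 negative cells, and the positive cell was higher in 86.7% of pairs of 1 positive and 1 negative cell. The difference was 2.76, and the lower positive cells overlapped the negative side. Adam10, a protease that sheds the receptor, had medians of 23.4 and 0.778 FPKM, was detected in 16 and 7 cells, and differed by 2.30. Its difference was below 2 in 5 of 15 alternatives: 1.26 with a pseudocount of 10 FPKM, 1.35 with a Trem2 threshold of 20 FPKM, 1.69 without the cells with the fewest genes above 0, 1.81 in cells 0 to 19 and 1.98 after median-ratio scaling. Adam17, its relative, differed by 0.44, Vav1, an exchange factor in the same signalling chain, by 1.61, and Pik3cd, a PI3-kinase subunit, by 1.37.

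The lipid-associated macrophage genes had the highest median of the lists compared. Of 24 measured genes of the list, 13 were higher, none lower and 11 within the limit, beside 2.27% of all measured genes called higher and 0.481% called lower. The list's median was 2.23 beside 0.24 for all genes. The list was drawn up with these results known, and 4 further members (Itgax, Ctsk, Cd5l and Il1rn) were measured in too few cells to compare, so the count describes the list and supports nothing further. The count of higher genes was 12 after either scaling and 10 after removal of the linear term in genes detected, with a list median of 1.42 in the latter and 1 gene, Cd68, lower. All 13 kept a positive sign in the 15 alternatives run, and 5 of them (Lpl, Fabp4, Lgals3, Ctsl and Pld3) stayed at 2 or more throughout.

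Lpl, lipoprotein lipase, which frees fatty acids from circulating triglyceride, had the largest difference of any gene besides Trem2. It ran from 0.296 through a median of 141 to 1499 FPKM in positive cells, and from 0.243 through 1.33 to 4171 FPKM in negative cells. With detection in 20 of 21 and 7 of 14 cells, presence differed too. The single highest cell was therefore a negative one, but the positive cell was higher in 82.7% of pairs. Mean log2 values were 6.42 ± 2.86 (SD, 21 cells) and 2.76 ± 3.38 (SD, 14 cells), a difference of 3.67.

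Gpnmb ran from 0 through 2.89 to 231 FPKM in positive cells and from 0 through 0.0756 to 29.6 FPKM in negative cells, a difference of 2.84. It was detected in 12 positive cells and 1 negative cell and was below 1 FPKM in the other positive cells. Cd9, a tetraspanin used to sort lipid-associated macrophages, ran from 0.0983 through 52.6 to 1241 FPKM and from 0 through 0.525 to 495 FPKM, a difference of 3.24. Detection was in 20 positive and 6 negative cells.

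Detection of the 3 markers together was counted cell by cell. All of Lpl, Gpnmb and Cd9 were detected in 12 positive cells and exactly 2 of them in 8, while cell 10, at 396 FPKM of Trem2, held none. On the negative side 4 cells held none, 7 held 1, 2 held 2 (cells 15 and 19) and 1, cell 26, held all 3. Cell 19 is also the negative cell nearest the threshold. Cells 15 and 26, and the positive cells 2 and 24 among the 12, are cells in which 1 fragment was worth over 4 times the median. In cells 2 and 24 Gpnmb stood at 2.21 and 2.89 FPKM and Cd9 at 3.23 and 4.24 FPKM. Without the 5 such cells the differences were larger for Gpnmb, at 3.40, and Cd9, at 3.98.

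**Figure D2:**
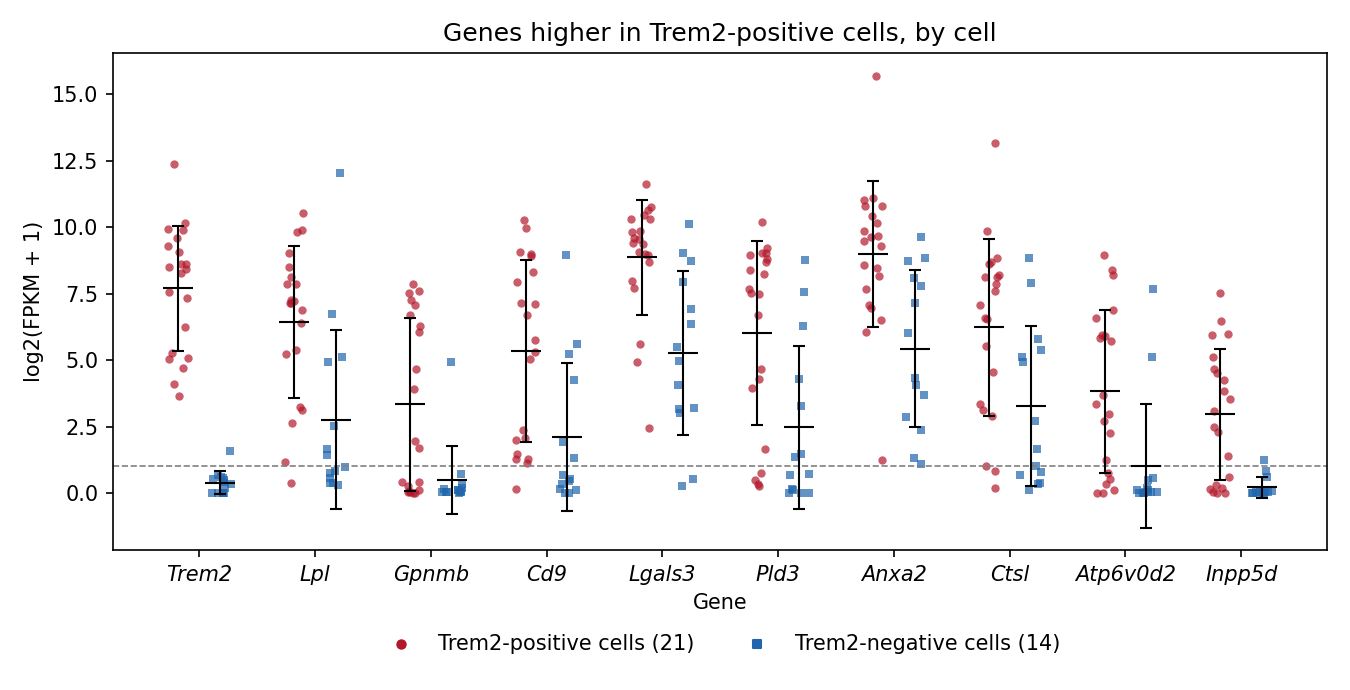
Level of genes higher in Trem2-positive cells, as log2(FPKM + 1), with 1 point per cell: circles for the 21 positive and squares for the 14 negative cells. Bars are means with the SD over cells, and the dashed line marks 1 FPKM. The sides overlap for every gene shown apart from Trem2, which defines them; Lgals3 was detected in all 21 positive cells.

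Lgals3, galectin-3, a lectin of phagocytic macrophages, ran from 4.43 through 671 to 3139 FPKM in positive cells and from 0.210 through 36.9 to 1111 FPKM in negative cells, a difference of 3.59. It was detected in all positive cells and in 12 negative ones, so it separated the sides by level rather than by presence. Anxa2, a calcium-dependent membrane-binding protein outside the list, showed the same form: it was detected in every cell, with medians of 719 and 41.8 FPKM and a difference of 3.57. Pld3, a lysosomal nuclease of the phospholipase D family, had medians of 184 and 1.10 FPKM, was detected in 17 and 7 cells, and differed by 3.54.

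The lipid-binding and lipid-storing members followed. Fabp4 and Fabp5, which carry fatty acids in the cytosol, differed by 2.89 (medians 179 and 6.68 FPKM) and 2.58 (medians 7.79 and 0.0523 FPKM). Fabp5 was detected in 13 positive and 2 negative cells. Lipa, the lysosomal acid lipase that splits cholesteryl esters and triglycerides, had medians of 110 and 19.6 FPKM, was detected in 21 and 10 cells, and differed by 2.38. Plin2, which coats lipid droplets, had medians of 431 and 97.7 FPKM and a difference of 2.09, which was below 2 without any 1 of 7 cells and 1.64 without cell 18. After removal of the linear term in genes detected, Lipa was at 1.49 and Fabp5 at 1.92, while Fabp4 was at 4.08.

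The list also holds lysosomal proteases and membrane proteins, of which Ctsl, Ctsd, Cd63 and Atp6v0d2 were higher, while Ctsb, cathepsin B, lay within the limit at 1.06 and Cd68 at -1.19. Ctsl, cathepsin L, ran from 0.138 through 134 to 9191 FPKM in positive cells and from 0.0704 through 3.83 to 460 FPKM in negative cells, a difference of 2.97. Ctsd, cathepsin D, had medians of 382 and 27.3 FPKM and Cd63, a tetraspanin of late endosomes, 563 and 85.1 FPKM. Both differed by 2.50, and Ctsd was at 1.11 after removal of the linear term. Atp6v0d2, the myeloid form of a proton-pump subunit, was detected in 15 positive and 2 negative cells and differed by 2.79, with medians of 9.14 and 0.0528 FPKM. Some calls of the list fell short of 2 in 1 putative library part, meaning a run of cell numbers that the labels do not name as a batch. In cells 20 to 36 alone Ctsd was at 1.13, Atp6v0d2 at 1.60, Cd63 at 1.80 and Gpnmb at 1.98, and in cells 0 to 19 Fabp5 was at 1.81.

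Not every member of the program went the same way. Cd68, a lysosomal glycoprotein used as a general macrophage marker, had the lower median on the positive side, 278 against 579 FPKM, and a difference of -1.19. Spp1, osteopontin, and Mmp12, macrophage elastase, were each detected in 3 positive and 2 negative cells and differed by 0.02 and -0.04. Cd36, a scavenger receptor for oxidised lipid, was detected in 21 and 13 cells with medians of 219 and 124 FPKM and a difference of 1.13. The scavenging receptor was present on both sides, while the lipase and the fatty acid carriers differed by more.

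The number of list genes seen was also counted in each cell. It restates the same genes in the same cells and adds no separate support. Positive cells held 14 to 22 of the 24 genes at 1 FPKM or more, with a median of 20, and negative cells 8 to 18, with a median of 14.5. The ranges overlapped between 14 and 18 genes. The number moved with the count of all genes detected, with a Spearman rho of 0.63 over the 21 positive cells and 0.60 over the 14 negative cells (Pearson r 0.65 and 0.46), and the 2 numbers share each cell's library. Its part in the difference was not tested.

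**Figure D3:**
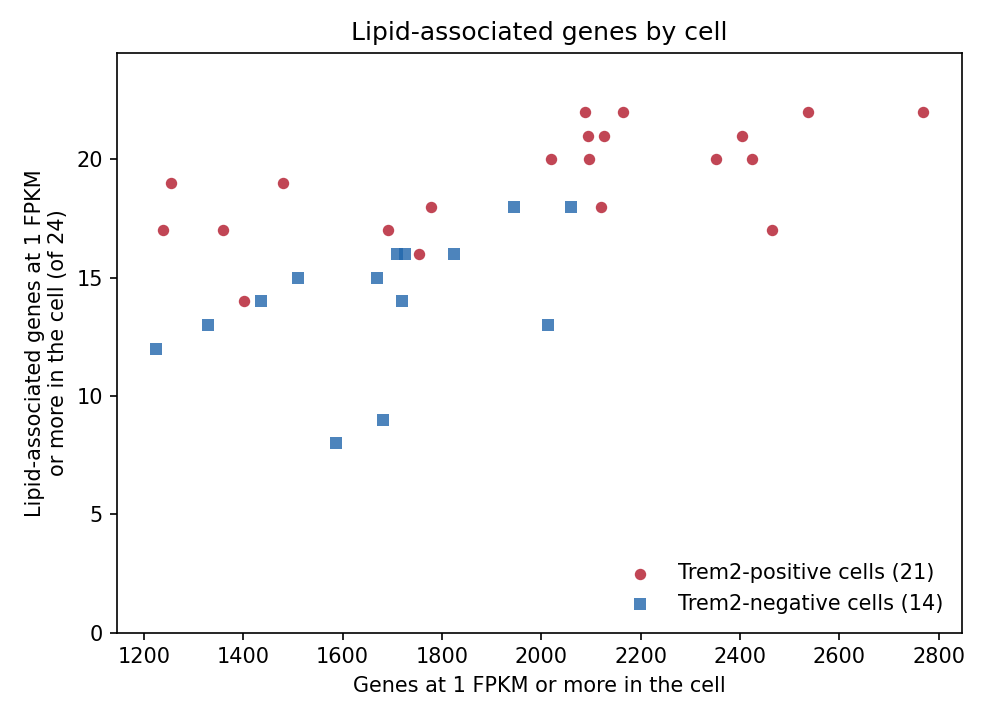
For each cell, the number of the 24 lipid-associated genes at 1 FPKM or more against the number of all genes at 1 FPKM or more; circles are Trem2-positive and squares Trem2-negative cells. Positive cells lie between 14 and 22 list genes and negative cells between 8 and 18, and both numbers increase together within each side.

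Among the positive cells, the amount of Trem2 went weakly with part of the list and not with several of its called genes. Across the 21 cells the Spearman rho with Trem2 was 0.62 for Lipa (Pearson r 0.53), 0.47 for Lpl (0.48), 0.45 for Lgals3 (0.57) and 0.42 for Fabp5 (0.36). It was 0.32 for Gpnmb, 0.24 for Cd9 and -0.06 for Fabp4, and the median over the 24 genes was 0.23. The values of 1 cell share its library and its depth, and these relations are given as a description.

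Cholesterol handling differed at 1 gene. Of 15 measured genes, Abcg1, the transporter that exports cholesterol to high-density lipoprotein, was higher, beside 2.27% of all measured genes. The other 14 lay within the limit, and the median was 0.47. Abcg1 ran from 0 through 56.5 to 441 FPKM in positive cells and from 0.0907 through 1.04 to 59.9 FPKM in negative cells, a difference of 2.63. In cells 0 to 19 it was 1.05 and in cells 20 to 36 it was 4.48, the putative parts holding 12 positive and 7 negative cells in the first and 9 and 7 in the second. Its partner Abca1 differed by 0.98, and Nr1h3, which encodes LXRα, the sterol-sensing receptor that drives both, by 1.68. Apoe, the main lipid-carrying apolipoprotein of macrophages, had medians of 11335 and 10694 FPKM and was detected in every cell. Its difference of means was 1.14. Of 12 measured genes of fatty acid storage and oxidation none passed the limit in either direction, with a median of 0.43.

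A list of 16 measured genes covered the vacuolar proton pump, which acidifies the lysosome. It left out the subunit Atp6v0d2, given above with the lipid-associated genes as higher at 2.79. Of the 16 genes 2 were higher, none was lower and 14 lay within the limit. Their median was 1.00, and 2.27% of all measured genes were called higher. A difference above 0 was found for 15 of the 16 subunits, beside 62.3% of all measured genes. The 2 were Atp6v1b2 at 2.70 (medians 21.1 and 0.575 FPKM, 19 and 5 cells) and Atp6v1f at 2.48 (medians 44.6 and 4.05 FPKM). Atp6v1f was at 0.98 in cells 0 to 19 and 4.21 in cells 20 to 36, and at 1.44 after removal of the linear term, when the list's median was 0.61. Of 20 further lysosomal genes 17 had a difference above 0, with a median of 0.55, and Lamp1, a main membrane protein of the organelle, passed the limit at 2.08. Its difference was below 2 without any 1 of 11 cells, and 1.80 without cell 0, and it was 1.07 in cells 20 to 36. Of 6 measured genes of the MiT/TFE circuit, which drives lysosomal genes, none passed the limit, with a median of 0.26.

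General macrophage genes differed less. Of 20 measured genes, Emr1, the older symbol of Adgre1 that encodes the F4/80 antigen, was higher, beside 2.27% of all measured genes. The other 19 lay within the limit, and the median was 0.15. Emr1 had medians of 189 and 12.6 FPKM, was detected in 20 and 12 cells, and differed by 2.53, or 1.83 without the 5 cells of high fragment value. Lyz2, lysozyme, differed by 1.08 and C1qb, of the complement component C1q, by 0.36, with a sign that changed in 2 of 15 alternatives for C1qb. The sign of this list's median changed in 3 of 15 alternatives.

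Other genes with the largest differences belonged to respiration and to varied cell functions. Ndufs7, a subunit of respiratory complex I, had medians of 81.9 and 1.58 FPKM and a difference of 3.64, and its relative Ndufb3 differed by 2.98. Cox5b, of cytochrome c oxidase, was detected in 18 positive and 5 negative cells with medians of 76.5 and 0.631 FPKM and a difference of 3.21. Of 24 measured genes of a list for oxidative phosphorylation, Cox5b and Cox8a were higher, beside 2.27% of all measured genes. The other 22 lay within the limit, and the median was 0.59. Tnfaip8l2, which encodes TIPE2, a lipid-transfer protein that restrains immune activation, was detected in 16 positive and 3 negative cells. Its medians were 36.2 and 0.387 FPKM and its difference 3.44.

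Blvrb, a biliverdin reductase that acts in haem breakdown, differed by 3.09 (medians 327 and 4.28 FPKM), while the other 7 measured genes of iron and haem handling lay within the limit, and that list's median was 0.08. The remaining genes of the 15 largest under the naming rule were Myeov2 at 3.41, Rnasek at 3.40, Myl6, a myosin light chain, at 2.95, and Esd, an esterase, at 2.94. Myeov2 was uneven between the putative library parts, at 1.21 in cells 0 to 19 and 5.56 in cells 20 to 36. All 15 genes kept a positive sign in each of the 15 alternatives run, and 8 stayed at 2 or more in all of them: Lpl, Ndufs7, Lgals3, Anxa2, Pld3, Rnasek, Blvrb and Ctsl. Alternatives that changed only the filter return a gene's main value by construction, so they add nothing to these counts.

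Lower in Trem2-positive cells were the NF-kB regulators Nfkbiz and Nfkbia, the chemokine Ccl4 and the stress-response gene Ppp1r15a. Nfkbiz, which encodes an inducible nuclear co-regulator of NF-kB, had the largest difference in this direction. It ran from 0.122 through a median of 85.9 to 1416 FPKM in negative cells and from 0 through 1.58 to 164 FPKM in positive cells, a difference of -3.63. It was detected in 13 of 14 negative and 12 of 21 positive cells, and the positive cell was higher in 19.7% of pairs. The naming rule took the 15 lowest genes that kept their sign in both runs of cell numbers and in at least 70% of pairs. Of these, 11 were past the limit, and Nfkbiz alone stayed past it in all 15 alternatives. The others, Tra2b, Mat2a, Pop4 and Rps21, lay short of it from the start, between -1.99 and -1.75.

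Nfkbia was detected in every cell, with medians of 431 FPKM (51.4 to 1827) in negative and 249 FPKM (1.05 to 4133) in positive cells. The negative cells lay close together and the positive ones spread over a wide range, with means of log2 values of 8.77 ± 1.42 (SD, 14 cells) and 6.44 ± 3.42 (SD, 21 cells). The difference was -2.33, but -3.42 in cells 0 to 19 and -0.95 in cells 20 to 36, and -0.79 between medians. Ppp1r15a ran from 0.430 through 59.6 to 1217 FPKM in negative cells and from 0 through 0.484 to 506 FPKM in positive cells, a difference of -3.14.

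Ccl4, a chemokine that NF-kB induces, had medians of 12.5 and 0.845 FPKM in negative and positive cells and a difference of -2.29. It was -5.37 in cells 0 to 19 and reversed to 1.27 in cells 20 to 36. Without any 1 of 5 cells it fell short of the limit of -2, at -1.78 without cell 19. Of 15 measured inflammatory genes these 3 (Nfkbiz, Nfkbia and Ccl4) were lower, beside 0.481% of all measured genes, none was higher, and 12 had a difference below 0, with a median of -0.98 beside 0.24 for all genes. Il1b, interleukin-1β, was detected in 3 positive and 5 negative cells and differed by -0.98, and Ccl9 lay on the other side at 0.98. In cells 20 to 36 alone 2 genes of the list were higher and 1 lower.

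Immediate early genes, which respond within minutes to many stimuli, did not pass the limit. None of 17 measured genes was past it in either direction, and the median was -0.64. A difference below 0 was found for 12, while 62.3% of all measured genes were above 0. In cells 20 to 36 alone 2 were higher and 3 lower, 8 of the 17 were above 0 and the median was -0.30, and without the cells with the fewest genes above 0 it was -0.16. Jun, a subunit of AP-1, had medians of 46.0 and 2.74 FPKM in negative and positive cells and a difference of -1.83. Ier3 differed by -1.70, while Jund, another AP-1 subunit, was at 1.25. Junb stood at 0.27, with a sign that changed in 2 of 15 alternatives.

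**Figure D4:**
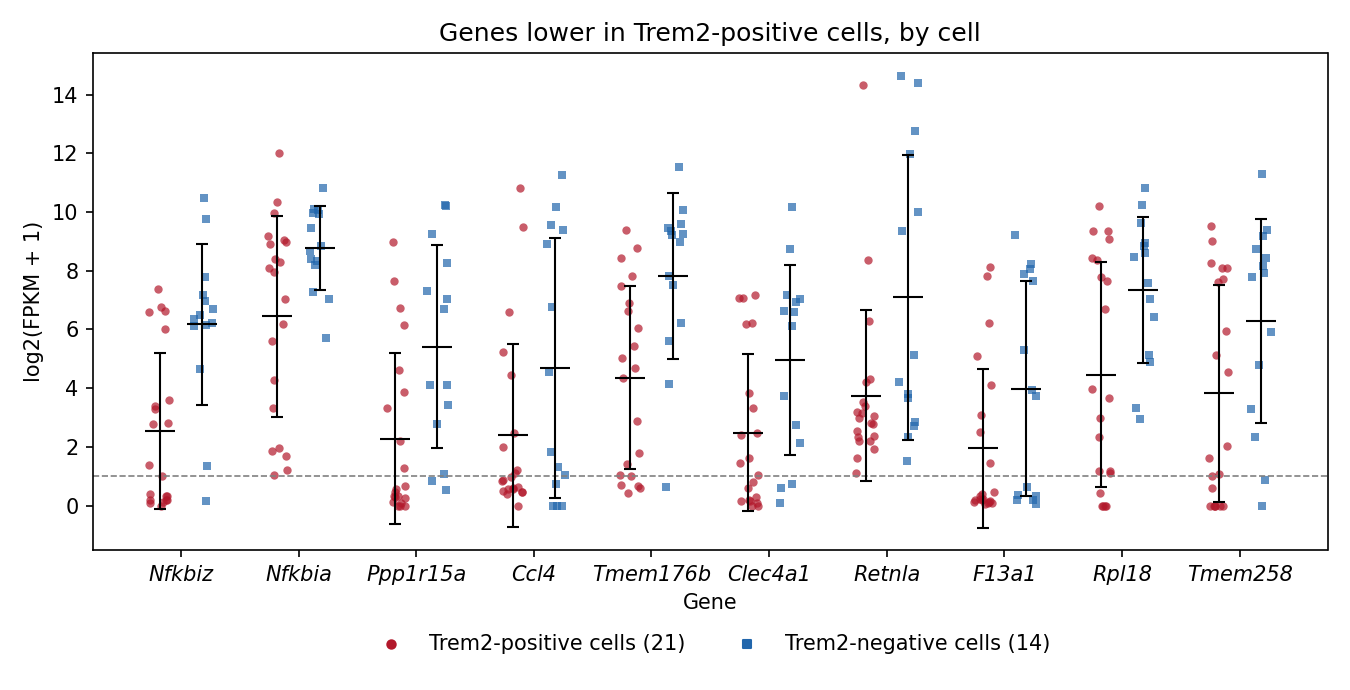
Level of genes lower in Trem2-positive cells, as log2(FPKM + 1), with 1 point per cell: circles for the 21 positive and squares for the 14 negative cells. Bars are means with the SD over cells, and the dashed line marks 1 FPKM. The sides overlap for each gene; Retnla spans the widest range.

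Tmem176b, an endosomal ion channel of myeloid cells, ran from 0.563 through 553 to 2992 FPKM in negative cells and from 0.354 through 24.8 to 670 FPKM in positive cells, a difference of -3.46. It was detected in 13 negative and 17 positive cells, so the sides differed in level more than in presence. Clec4a1, a lectin receptor of myeloid cells, had medians of 82.9 and 1.70 FPKM and differed by -2.48. Rpl18, a ribosomal protein, had medians of 271 and 11.7 FPKM and differed by -2.89, and Tmem258, of the oligosaccharyltransferase complex, had 232 and 3.05 FPKM and differed by -2.47. In cells 20 to 36 alone the differences were smaller, -1.73 for Tmem176b, -1.39 for Clec4a1 and -1.07 for Rpl18, and Ppp1r15a stood at -1.95.

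The resident macrophage list gave a mixed result. Of 18 measured genes 2 were lower, none was higher and 16 lay within the limit, with a median of -0.52. Of all measured genes, 0.481% were called lower and 2.27% higher. Retnla, the secreted protein RELMα of alternatively activated macrophages, was detected in every cell with medians of 25.7 FPKM (1.84 to 25703) in negative and 6.89 FPKM (1.15 to 20706) in positive cells. Its difference of means was -3.35 and its difference of medians -1.68, and the former was -1.58 in cells 0 to 19 and -5.00 in cells 20 to 36. F13a1, coagulation factor XIII subunit A, had medians of 13.3 and 0.267 FPKM and a difference of -2.02. That difference fell short of the limit of -2 without any 1 of 20 cells, and was -1.62 without cell 15.

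Mrc1, which encodes CD206, the surface marker used for resident cells, had nearly equal medians, 109 FPKM in negative and 100 FPKM in positive cells, and a difference of -0.95, whose sign changed in cells 20 to 36, at 0.15. Mgl2, a lectin often expressed with it, differed by -1.96, while Igf1 was on the other side at 1.65 and Folr2, a folate receptor of resident macrophages, at 1.11, a sign that changed in 1 of 15 alternatives. Lyve1 and Ccl24 were each detected in 3 negative cells and no positive cell, too few to compare. Mrc1 itself was detected in 18 of 21 positive and all 14 negative cells.

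All 7 measured genes of MHC class II presentation had a difference below 0, from -1.44 to -0.13 with a median of -0.69, and none passed the limit. Of all measured genes, 62.3% had a difference above 0. H2-Ab1, the beta chain that presents peptide, ran from 261 through 4976 to 14938 FPKM in negative cells and from 12.7 through 3066 to 12495 FPKM in positive cells, a difference of -1.43. Cd74, the invariant chain, had medians of 6928 and 3960 FPKM and a difference of -0.60, whose sign changed in 2 of 15 alternatives. In cells 20 to 36, and after removal of the linear term in genes detected, 3 of the 7 genes were above 0.

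Of 7 measured genes of monocyte-like cells, with a median of 0.28, 1 was higher, S100a4 at 2.15, and 1 lower, the interferon-induced membrane protein Ifitm3 at -2.15. S100a4 and Ifitm3 fell short of the limit without any 1 of 12 and 10 cells, at 1.83 without cell 28 and -1.81 without cell 17. Of all measured genes, 2.27% were called higher and 0.481% lower, which also stands beside the lists that follow. Genes for the uptake of dying cells held 1 lower gene of 12, the GTPase Rac2 at -2.05, with a median of -0.24 whose sign changed in 6 of 15 alternatives. Of 12 measured genes of glycolysis, aldolase A (Aldoa) was higher at 2.65. It was at 1.28 in cells 0 to 19 and 4.32 in cells 20 to 36, and at 1.99 after removal of the linear term. Of 10 genes of tissue remodelling, annexin A1 (Anxa1) was higher at 2.11, or 1.66 without cell 0. The medians of these 2 lists were 0.35 and 0.63. Of 5 measured genes of alternative activation only Retnla passed the limit, with a median of -0.41. None of 4 measured cell cycle genes and none of 2 interferon-response genes did, with medians of -0.17 and -0.34 whose signs changed in 5 and 2 of 15 alternatives. None of 11 housekeeping genes passed the limit, with a median of -0.06.

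**Figure D5:**
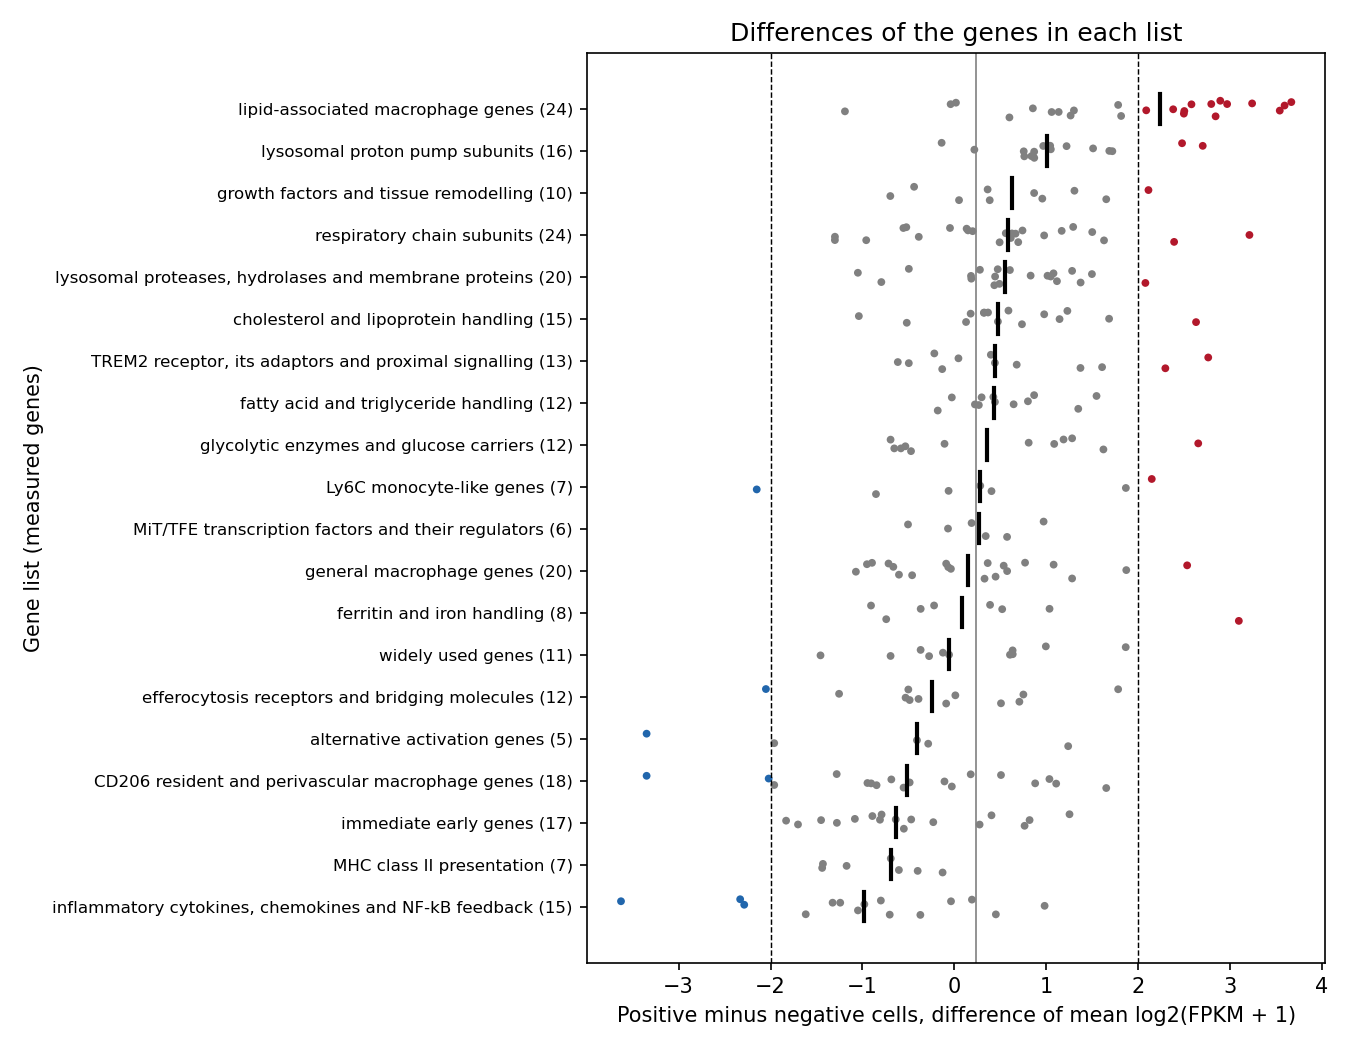
Differences of mean log2(FPKM + 1), Trem2-positive minus Trem2-negative cells, for the measured genes of each list, with 1 dot per gene; Trem2 has no dot but enters the count and median of its own list. Black bars are list medians, the grey line is the median of all measured genes and dashed lines mark 2 and -2. The lipid-associated list, with a median of 2.23, lies farthest to the right, and the inflammatory list, at -0.98, farthest to the left.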

How the data were processed

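The authors' deposited table holds FPKM for 23947 genes in 37 cells. Per the submitters' processing notes, STAR, Cuffnorm and the mouse build mm9 were used; their versions were not given in the sources used here, nor was the annotation. The values are already scaled per cell, and depth is unknown, so no interval or count test was made. A relative value of 1 fragment was estimated from the ratios of values from 0.005 to 1 FPKM between cells (573 of 663 cell pairs kept).

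Values were transformed to log2(FPKM + 1) with Python 3.11.15, numpy 2.4.6 and pandas 2.3.3. A gene was detected at 1 FPKM or more, measured when detected in at least 5 of 35 cells, and called at a difference of 2 or more between the means of the sides. A call is a description. The calculation was tested on simulated data. Named genes were Trem2, its markers, members of 32 lists (449 genes, 442 in the table, 271 measured) and the 15 largest differences in each direction with the same sign in cells 0 to 19 and 20 to 36 and in at least 70% of pairs of cells. Members and lists were chosen with earlier results of these data known. Alternatives changed the pseudocount, filter, threshold, scaling, summary and cells. Those that changed only the filter leave the difference of each gene as it was and say nothing of its stability. Gene symbols are those of the table. Promoter sequences are RefSeq, build GRCm38.p6, and were matched by symbol only. Genes with near-identical copies or that overlap others can share fragments.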

Additional observations from a re-analysis of the deposited data

How the results depend on the processing

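The counts of genes past the limit, 99 higher and 21 lower, depended on the settings. Of 291 named or listed genes 154 kept their sign in all alternatives run, at most 15 per gene. Of the 50 of these 291 past the limit, 49 kept it and 11 stayed past the limit in all. Each of these counts includes Trem2, which chose the sides, so its place in them is no result. Alternatives that changed only the filter could not alter a single gene's value. The exception in sign was Ccl4, at 1.27 in cells 20 to 36. Counts were 382 and 84 with a pseudocount of 0.1 FPKM, and 15 and 3 with 10 FPKM. Differences of medians gave 247 and 68, a limit of 1 gave 699 and 234, and a limit of 3 gave 13 and 4. Cells 0 to 19 gave 234 and 97, cells 20 to 36 gave 281 and 108, and leaving out the cells with the fewest genes above 0 gave 153 and 44. Median-ratio scaling gave 64 higher and 28 lower, and removal of the linear term in genes detected 69 and 47. Without the 5 cells of high fragment value, an alternative chosen after seeing the data, they were 114 and 43. Leaving out 1 cell gave 91 to 118 higher and 19 to 34 lower, the latter 34 without cell 5 and 33 without cell 25. In the same leave-one-out, 11 of the 50 genes fell short of the limit without some cell: Anxa1, Ccl4, Eps15, F13a1, Fam49b, Ifitm3, Kdm7a, Lamp1, Plin2, Rac2 and S100a4. The causes of these shifts were not tested. With the higher Trem2 threshold of 20 FPKM the counts were 110 and 24, and with 1 FPKM 115 and 27. No paired analysis was possible because the labels hold 1 group.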

Other observations

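Several gene families were looked at after the values were seen, and are given as values only. Of 35 measured complex I subunit genes (Nduf), 7 were higher in Trem2-positive cells and none lower, beside 2.27% and 0.481% of all measured genes, with a median difference of 0.79 beside 0.24 for all genes and a range from -1.95 to 3.64. The 7 were Ndufa5, Ndufb10, Ndufb3, Ndufc1, Ndufs6, Ndufs7 and Ndufv2. Of 5 measured Lamtor genes, which encode the Ragulator complex that anchors mTORC1 to the lysosome, Lamtor1 and Lamtor3 were higher, with a median of 0.49 over the 5. Both Tmem176a and Tmem176b, neighbouring and related genes, were lower, at -2.14 and -3.46. Of 79 measured ribosomal protein genes 3 were higher and 1, Rpl18, was lower, with a median of 0.57. A difference below 0 was found for 23 of the 79, among them Rps21 at -1.75 and Rplp0 at -1.46. Most of the family thus did not share the direction of Rpl18.

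The 2 cells left out held little or no Trem2, 0.788 FPKM in cell 7 and 0 in cell 27, together with the markers Cd9, at 847 and 593 FPKM, and Lpl, at 40.5 and 17.7 FPKM. Gpnmb was listed at 0 in cell 7 and stood at 17.7 FPKM in cell 27. With both kept on the negative side the counts were 79 higher and 26 lower.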
